A study of Homo sapiens with 36 samples.

Results

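The genes described here are 9 that encode IRE1 and ATF6, sensors of stress in the endoplasmic reticulum (ER), together with their processing machinery and close relatives: ERN1, XBP1, ATF6, ATF6B, MBTPS1, MBTPS2, CREB3, CREB3L1 and CREB3L2. They were taken by symbol and are 9 of 58721 genes in the deposited gene table. All 9 were among the 19772 genes that passed a filter on low counts. RNA was sequenced from H1, an established line of human embryonic stem cells, labelled wild type or PERK KO, with 3 libraries for each genotype at days 0, 1, 2, 3, 5 and 10 of differentiation toward cardiomyocytes, 36 libraries in all. Cells at day 0 were undifferentiated and grown in E8 medium. The design text gives a single protocol, in which cells moved to a cardiac differentiation medium with CHIR99021, a WNT pathway activator, over days 0 to 1, IWP2, a blocker of WNT secretion, over days 2 to 5, heparin from day 1 to day 7 and insulin from day 7. The design text speaks of collection at days 0, 2 and 6, and the days on the sample labels were used. How PERK was disrupted, how many clones the PERK KO group holds and from how many cultures the replicates came is not given in the sources used here. The p-values therefore measure only the spread between these libraries, which may be technical.

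The ER senses unfolded proteins through 3 membrane proteins, IRE1, ATF6 and PERK. IRE1, the product of ERN1, is a kinase and an endoribonuclease that cuts a short segment out of XBP1 mRNA, after which the joined message encodes the active transcription factor XBP1. ATF6 and its relative ATF6B leave the ER for the Golgi, where site-1 protease (MBTPS1) and then site-2 protease (MBTPS2) cut them and free a transcription factor that raises ER chaperone genes. CREB3, CREB3L1 and CREB3L2 are membrane-bound factors of the same design, cut by the same proteases and known for the control of secretion and of collagen and other matrix genes. All of these steps act on protein or on splicing, so a gene-level mRNA count reads how much message is present and not whether a sensor is active.

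The genes lie on 9 chromosomes in GRCh38 (GENCODE release 29), and counts take in their annotated exons, untranslated parts included. ERN1 is at chr17:64039142-64130819, XBP1 at chr22:28794555-28800597, MBTPS1 at chr16:84053761-84116906, ATF6B at chr6:32115264-32128253 and CREB3L2 at chr7:137874979-138002067, all on the minus strand. ATF6 is at chr1:161766294-161964070, MBTPS2 at chrX:21839636-21885424, CREB3 at chr9:35732335-35737004 and CREB3L1 at chr11:46277661-46321422, all on the plus strand.

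The segment that IRE1 removes is shown because it is the point at which the first pathway is read in other assays. It lies in exon 4 of XBP1, within the coding sequence, at chr22:28796124-28796149 on the minus strand (GRCh38, GENCODE release 29). It is 26 nt long, which is not a multiple of 3, so its removal shifts the reading frame. The capitals mark it in the unspliced message, with 30 nt on either side, and the joined message lacks it.
XBP1 unspliced: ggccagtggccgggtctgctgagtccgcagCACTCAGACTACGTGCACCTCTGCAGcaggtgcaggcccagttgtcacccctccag
XBP1 spliced: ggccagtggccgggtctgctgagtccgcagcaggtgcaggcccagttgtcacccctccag
Among the annotated XBP1 transcripts 2 lack the segment. Counts per gene add up all transcripts, so the spliced share is not read by these data.

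Promoters were read from RefSeq (GRCh38.p14) for all 9 genes over the 250 bases before each start, and searched on both strands for 4 elements of these pathways. The ER stress element (ERSE: CCAAT, then 9 bases of any kind, then CCACG), the element ERSE-II (ATTGG, then 1 base of any kind, then CCACG) and the core of the unfolded protein response element (TGACGTGG) are known for ATF6 and XBP1, and the cyclic AMP response element (CRE, TGACGTCA) for factors of the CREB type. An ERSE was found in XBP1, 52 bases before the start, and a CRE in CREB3L2, 179 bases before it. The other 7 genes held none of the 4 in the windows searched. The windows of ERN1, CREB3 and CREB3L1 lie inside these genes as annotated in GENCODE. That of CREB3L1 (chr11:46294909-46295158) lies far past the annotated start at 46277661. Bases before the annotated starts of these genes were therefore not searched. Among all 35116 promoters of this length, 26 (0.074%) held an ERSE, 18 (0.0513%) an ERSE-II, 215 (0.612%) the core element and 578 (1.65%) a CRE. The 2 promoters are shown because these 2 genes held an element, and they had the highest level and the largest single genotype difference of the set. The XBP1 window is chr22:28800570-28800819 and the CREB3L2 window chr7:138002087-138002336, both on the minus strand, with the fixed letters of the element in capitals.
XBP1 promoter: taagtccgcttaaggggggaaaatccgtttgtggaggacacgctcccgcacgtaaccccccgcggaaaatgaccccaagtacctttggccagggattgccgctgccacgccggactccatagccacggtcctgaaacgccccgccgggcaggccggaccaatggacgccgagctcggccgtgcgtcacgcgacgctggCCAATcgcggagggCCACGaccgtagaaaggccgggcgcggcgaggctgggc
CREB3L2 promoter: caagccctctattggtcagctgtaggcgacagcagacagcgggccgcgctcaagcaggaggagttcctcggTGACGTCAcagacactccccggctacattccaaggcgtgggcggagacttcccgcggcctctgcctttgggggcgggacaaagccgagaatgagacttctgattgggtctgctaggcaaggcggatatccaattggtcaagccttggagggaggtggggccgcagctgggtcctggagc
A match describes these letters only and is not evidence of binding.

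Libraries held 14.0 to 25.9 M counts (median 18.2 M), and the 9 genes had between 67 and 4974 counts in each. PERK KO day 0 replicate 2 stood apart, with counted transcripts of 2028 nt on average against 2838 and 2783 nt in the other replicates of its group. Wild-type day 2 replicate 3 also stood apart (2676 nt against 2943 and 2886 nt), so results that rest on either library are given with and without the pair. EIF2AK3, the gene of PERK, was counted in every group (10.7 to 22.1 mean CPM, counts scaled to library size) and was not called different at any day (adjusted p 0.127 to 0.981 by edgeR), so the gene-level counts do not show the edit. Day 0 cells of both genotypes carried all 8 pluripotency markers, with a summed level of 6979 to 7473 CPM in wild type and 7618 to 8980 in PERK KO. At day 10 the sum of 8 cardiomyocyte markers was 13220 to 17370 CPM in wild type and 111 to 423 CPM in PERK KO. The 8 pluripotency markers summed to 615 to 766 CPM in wild type and 2031 to 2070 in PERK KO. Of these, 5 were higher and 2 lower in PERK KO, and NANOG was below 1 CPM in both genotypes. Neuroectoderm markers went the other way from the cardiomyocyte markers, with 6 of 7 higher and 1 lower in PERK KO at days 3 and 5. At day 10 7 of 7 were higher, and they summed to 834 to 1052 CPM against 31.2 to 39.9 in wild type. At day 2 their sum was higher in wild type, at 195 to 209 against 107 to 108 CPM. Of all tested genes 45.1%, 59% and 67.3% were called in 1 direction or the other at days 3, 5 and 10 (edgeR adjusted p under 0.05). At day 10 endoderm markers had 4 of 5 lower and 1 higher in PERK KO (sum 311 to 525 against 1333 to 2062 CPM). Endothelial markers had 5 of 5 lower (41.0 to 61.9 against 561 to 685 CPM). The sum of 6 streak and early mesoderm markers already differed at day 1, at 2770 to 2930 CPM in wild type and 659 to 816 in PERK KO. In bulk RNA fewer cells of a type and less RNA per cell cannot be told apart. The part of these marker differences in the results that follow was not tested.

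The main comparison asks whether the messages of the other stress sensors differ between libraries labelled PERK KO and wild type at each day. At day 0 PERK KO held more XBP1 and less ATF6B and CREB3L1 message, 3 of 9 genes called, where 21.1% of all tested genes were called by edgeR's quasi-likelihood test at a Benjamini-Hochberg adjusted p under 0.05. All 3 of these calls were lost in a fit of only the 6 day 0 libraries. At day 1 ERN1 was higher and XBP1 and CREB3L2 lower (3 of 9, background 15.8%). Genes lower in PERK KO were 2 of 9 at day 0 and 2 of 9 at day 1, against 8.64% and 7.72% of all tested genes lower. From day 2 nearly every called gene was lower in PERK KO. At day 2 this was 5 of 9, with 0 higher (background 42.6% called, 21.7% lower). At day 3 it was 7 of 9, with 0 higher (45.1% called, 23.2% lower). At day 5 it was again 7 of 9, with 0 higher (59% called, 30.5% lower). At day 10 it was 6 of 9 (67.3% called, 34% lower), with ATF6 higher. On the log2 scale the median fold change of the 9 genes was -0.45, -0.55, -0.96 and -0.68 on days 2, 3, 5 and 10, against a median near 0 over all tested genes (-0.03 to 0.00). The count at day 3 was 4 without PERK KO day 3 replicate 1 and also 4 without replicate 2, since ERN1, ATF6B and CREB3 were then not called. Without the 2 libraries that stood apart the counts were 4 at day 0 and 4 at day 2. A single test of whether the genotype difference varied over the days was passed by 8 of 9 genes, all but MBTPS2, and by 80.9% of all tested genes. Against their own day 0, wild-type cells had 1 gene higher and 2 lower at day 1 (background 44.6%), 3 and 1 at day 2 (50.5%), 4 and 0 at day 3 (56.8%), 5 and 2 at day 5 (61.9%), and 6 and 0 at day 10 (69.2%). PERK KO cells had 2 and 4 at day 1 (43.1%), 2 and 3 at day 2 (41.4%), 1 and 3 at day 3 (40.3%), 2 and 4 at day 5 (48.8%), and 3 and 3 at day 10 (61.8%). The PERK KO count at day 2 was 2 without PERK KO day 2 replicate 1, 3 without PERK KO day 2 replicate 3, and 3 without PERK KO day 0 replicate 2. In fits of only the compared libraries it was 2 at each of days 1, 2 and 3. The comparisons within a genotype share its day 0 libraries. The 6 daily comparisons between genotypes draw on separate libraries, but all come from 1 fit with a shared spread.

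**Figure D1:**
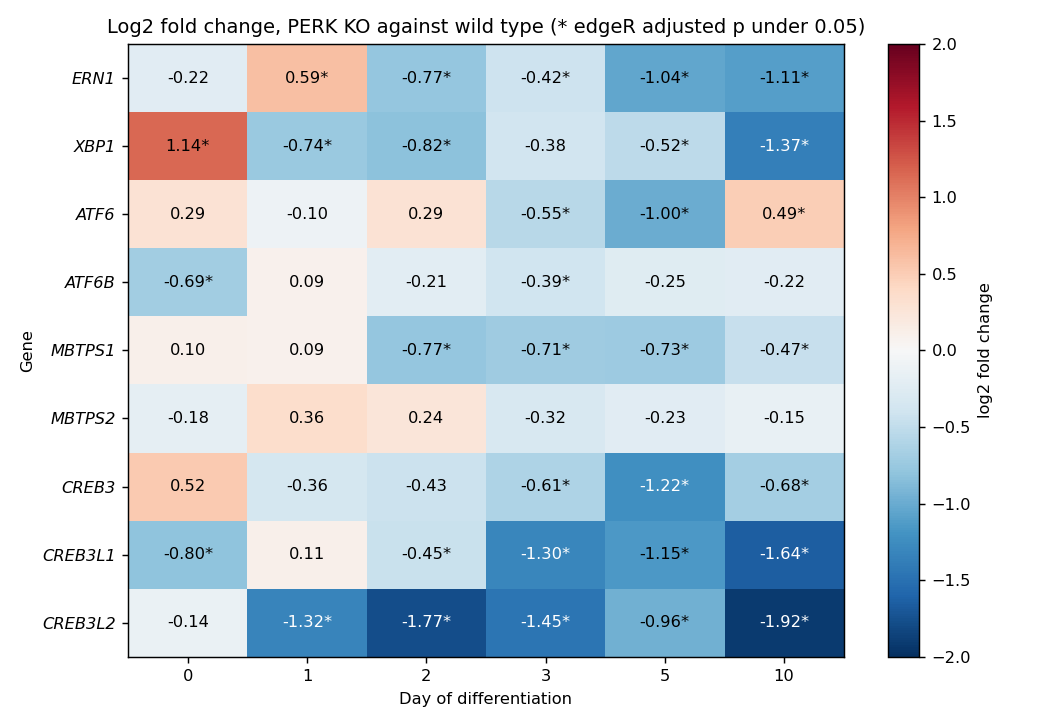
Log2 fold change of each gene (rows) in PERK KO over wild type by day (columns), with red for higher and blue for lower in PERK KO and an asterisk where the edgeR adjusted p was under 0.05. XBP1 turns from 1.14 at day 0 to -1.37 at day 10, and CREB3L2 is between -0.96 and -1.92 from day 1 on.

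ERN1, the gene of IRE1 itself, rose along the wild-type course. Its wild-type libraries read 7.70, 8.35 and 9.95 CPM (counts scaled to library size by TMM) at day 0 and 5.55, 5.40 and 6.34 at day 1. They read 11.6, 9.47 and 12.7 CPM at day 2, 10.4, 12.2 and 11.1 at day 3, 14.4, 15.0 and 12.8 at day 5, and 24.8, 28.0 and 26.6 at day 10. The day 10 libraries lie above every other library of the series, at 1.61 ± 0.16 (log2 fold change ± SE) over day 0 (adjusted p = 1.9e-10). In PERK KO the level stayed between 4.99 and 9.22 CPM in all libraries from day 0 to day 5, and only day 10 was called higher than day 0, with 13.1, 10.4 and 13.3 CPM (0.72 ± 0.16, adjusted p = 0.00025). Against wild type, ERN1 was higher in PERK KO at day 1 (0.59 ± 0.16, adjusted p = 0.00867) and lower at day 2 (-0.77 ± 0.16, adjusted p = 0.000213), day 3 (-0.42 ± 0.16, 0.028), day 5 (-1.04 ± 0.16, 1.46e-06) and day 10 (-1.11 ± 0.15, 2.14e-07). At each of those 5 days the libraries of the genotypes did not overlap. With an offset for transcript length the calls at day 1 (0.49, adjusted p = 0.0856) and day 2 (-0.38, adjusted p = 0.103) were lost. The day 3 call was lost without wild-type day 3 replicate 2 (-0.35, adjusted p = 0.113), without PERK KO day 3 replicate 1 (-0.41, adjusted p = 0.0712) and without replicate 2 (-0.37, adjusted p = 0.105).

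XBP1, the substrate of IRE1 and a transcription factor of the ER stress response, moved in opposite directions before and after the start of differentiation. At day 0 the PERK KO libraries read 209.0, 456.3 and 230.7 CPM and the wild-type libraries 156.8, 129.1 and 119.1, with no overlap (1.14 ± 0.19, adjusted p = 5.67e-05). The 456.3 belongs to the library that stood apart, and without that library and wild-type day 2 replicate 3 the difference was 0.71 (adjusted p = 4.34e-05). On the TPM scale, which divides by transcript length, the 3 PERK KO libraries lay close together at 183.8, 204.6 and 195.4 against 128.0, 105.1 and 96.1 in wild type. In a fit of only these 6 libraries the day 0 call was lost (1.15, adjusted p = 0.0993).
After 1 day the PERK KO libraries were down to 70.7, 76.8 and 65.0 CPM, and they stayed between 63.5 and 100.0 at all later days. Each later day was called lower than day 0 within PERK KO, by -1.67 to -2.21 on the log2 scale, and by -1.26 to -1.77 without the 2 libraries. Wild-type XBP1 was not called different from day 0 at days 1, 2 and 3, was lower at day 5 (94.8, 90.2 and 91.4 CPM, -0.55 ± 0.19, adjusted p = 0.0118) and higher at day 10 (167.1, 217.2 and 211.0 CPM, 0.56 ± 0.19, adjusted p = 0.00955). The day 5 call was lost without wild-type day 0 replicate 1 (-0.43, adjusted p = 0.0768) and the day 10 call without wild-type day 0 replicate 3 (0.47, adjusted p = 0.0517). Between genotypes XBP1 was lower in PERK KO at day 1 (-0.74 ± 0.19, adjusted p = 0.00571), day 2 (-0.82 ± 0.19, 0.00068), day 5 (-0.52 ± 0.19, 0.0185) and day 10 (-1.37 ± 0.19, 2.36e-07). At day 3 the value was -0.38 ± 0.19 (adjusted p = 0.101), although the libraries did not overlap, and it was -0.40 (adjusted p = 0.00233) without the 2 libraries. The XBP1 level at day 10 was 2.59-fold lower in PERK KO, the largest fold between genotypes for this gene.

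**Figure D2:**
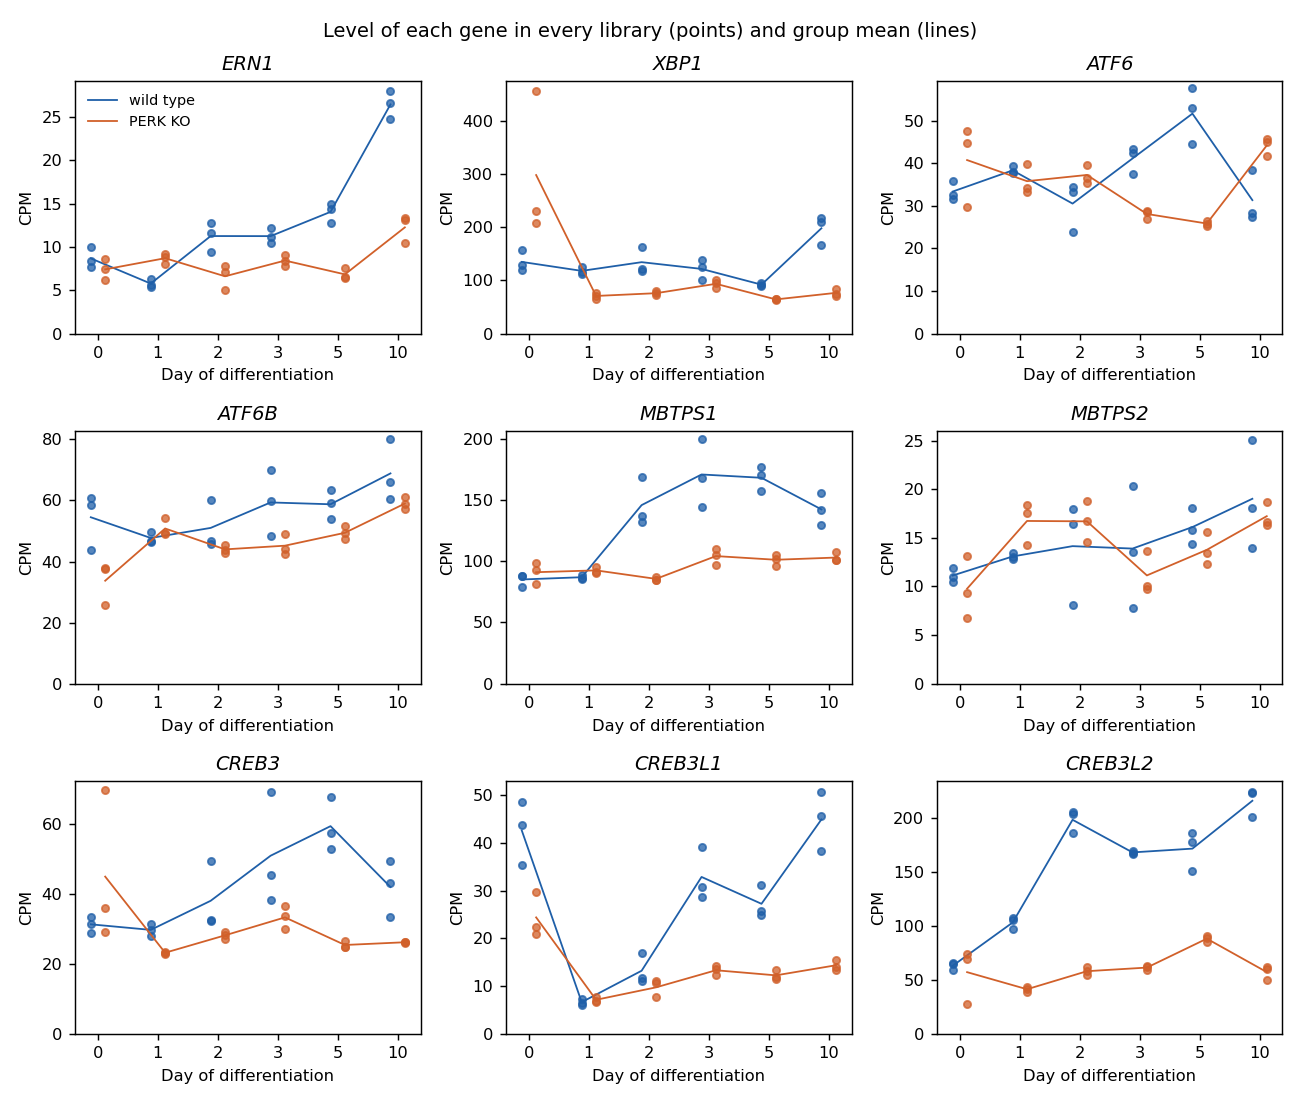
CPM of each of the 9 genes in every library (points) against day, with lines through the means of 3 libraries for wild type (blue) and PERK KO (orange), each panel on its own linear axis from 0. ERN1, MBTPS1 and CREB3L2 climb in wild type and stay flatter in PERK KO, and the highest XBP1 point is PERK KO day 0 replicate 2 at 456.3 CPM.

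ATF6, the sensor that is cut in the Golgi, showed 3 different genotype relations along the course. It was not called at days 0, 1 and 2. At day 3 PERK KO read 28.8, 26.9 and 28.7 CPM against 43.4, 42.5 and 37.5 in wild type (-0.55 ± 0.15, adjusted p = 0.00327), and at day 5 it read 26.5, 25.2 and 25.9 against 44.5, 52.9 and 57.7 (-1 ± 0.15, adjusted p = 1.52e-06). At day 10 the order was the other way round, with 45.8, 45.1 and 41.8 CPM in PERK KO against 38.4, 27.4 and 28.3 in wild type (0.49 ± 0.15, adjusted p = 0.00497). The libraries of the genotypes did not overlap at any of these 3 days. At day 10 the lower wild-type values were those of replicates 2 and 3, whose counted transcripts averaged 2802 and 2837 nt. Replicate 1, with the 38.4 CPM, averaged 3038 nt and the PERK KO libraries 3035 to 3080 nt. The part of this in the ATF6 difference was not tested. Within wild type the day 5 level was above day 0 (0.63 ± 0.15, adjusted p = 0.000605), and within PERK KO days 3 and 5 were below day 0 (-0.54 ± 0.15 and -0.66 ± 0.15, adjusted p = 0.00495 and 0.000657). Without the 2 libraries that stood apart ATF6 was also called higher in PERK KO at day 0 (0.48, adjusted p = 0.00594).

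ATF6B, which binds the same elements as ATF6 with weaker activity, varied little along the wild-type course. Its wild-type libraries ranged from 43.9 to 80.0 CPM over all days, and only day 10 was called above day 0 (0.34 ± 0.15, adjusted p = 0.0434). PERK KO was lower at day 0 with 37.7, 25.7 and 37.7 CPM against 43.9, 60.9 and 58.7 (-0.69 ± 0.15, adjusted p = 0.0012; -0.53, adjusted p = 0.00343, without the 2 libraries), a call lost in a fit of only the 6 day 0 libraries (adjusted p = 0.132). It was lower at day 3 with overlapping libraries (-0.39 ± 0.15, adjusted p = 0.0297), a call that was lost on leaving out any of 4 of the 6 libraries. Within PERK KO each later day was called above day 0, by 0.38 to 0.80 on the log2 scale; without the 2 libraries days 2 and 3 were not called (0.24 at each, edgeR adjusted p = 0.161 and 0.157). The exons of ATF6B overlap those of TNXB and AL662884.2 in the annotation, so its counts are uncertain to that extent.

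MBTPS1, the site-1 protease, was raised in wild type from day 2 and not in PERK KO. Wild-type libraries read 79.2, 88.0 and 87.8 CPM at day 0, 136.5, 132.1 and 168.6 at day 2, 144.4, 167.7 and 200 at day 3, 176.4, 170.6 and 156.9 at day 5, and 129.3, 141.6 and 155.7 at day 10. The log2 fold changes over day 0 were 0.78, 1.01, 0.98 and 0.74 (SE 0.11 each, adjusted p 5.41e-09 to 8.75e-07). No PERK KO day was called different from day 0 (with a length offset day 10 was, at 0.27, adjusted p = 0.0479), and all 18 PERK KO libraries lay between 81.5 and 110.0 CPM. Against wild type PERK KO was lower at day 2 (-0.77 ± 0.11, adjusted p = 1.45e-06), day 3 (-0.71 ± 0.11, 3.2e-06), day 5 (-0.73 ± 0.11, 1.6e-06) and day 10 (-0.47 ± 0.11, 0.000527). These 4 calls held without the 2 libraries and on leaving out each compared library in turn. The difference in time course between genotypes had an adjusted p of 2.28e-06.

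MBTPS2, the site-2 protease that makes the following cut, was not called between genotypes at any day. Its log2 fold changes lay between -0.32 ± 0.27 at day 3 and 0.36 ± 0.26 at day 1 (adjusted p 0.345 to 0.706), and the test over days gave an adjusted p of 0.408. Its wild-type replicates were widely spread, with 20.3, 13.6 and 7.80 CPM at day 3 and 25.1, 18.1 and 13.9 at day 10, and the SE of its differences was 0.26 to 0.27 against 0.11 for MBTPS1. Day 10 was above day 0 in wild type (0.78 ± 0.27, adjusted p = 0.0114) and in PERK KO (0.81 ± 0.27, adjusted p = 0.0107). The first of these was lost without wild-type day 10 replicate 1 (0.53, adjusted p = 0.106) and the other without PERK KO day 0 replicate 2 (0.62, adjusted p = 0.0845). Exons of MBTPS2 overlap YY2 and RF00019 on the same strand, and its counts are uncertain to that extent.

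CREB3, a factor known for control of Golgi and secretory genes, was lower in PERK KO from day 3. At day 5 PERK KO read 26.5, 24.8 and 25.0 CPM against 67.8, 52.9 and 57.6 in wild type (-1.22 ± 0.22, adjusted p = 2.21e-05). Day 10 gave 26.4, 26.1 and 26.2 against 33.5, 43.1 and 49.4 (-0.68 ± 0.22, adjusted p = 0.00767), and day 3 gave 29.9, 33.6 and 36.4 against 38.3, 45.4 and 69.3 (-0.61 ± 0.22, adjusted p = 0.0222). The day 3 call was lost without wild-type day 3 replicate 3 (-0.33, adjusted p = 0.25), the library with the 69.3, whose counted transcripts were 2792 nt on average against 3071 and 2939 nt in its group. At day 0 the library that stood apart read 69.9 CPM against 29.1 and 35.97 in the other PERK KO libraries, and the genotype value was 0.52 ± 0.22 (adjusted p = 0.0958) with it and 0.06 without the 2 libraries. CREB3 was called below day 0 within PERK KO at days 1, 2, 5 and 10, and without the 2 libraries only day 1 was called (-0.48, adjusted p = 0.0177). TLN1 and GBA2 overlap its exons on the opposite strand, and since the strand setting of the counting is not given in the sources used here, reads of these genes cannot be told apart from its own.

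CREB3L1, known as OASIS and for driving collagen genes in bone, fell sharply in both genotypes after 1 day. Wild-type libraries went from 35.4, 43.8 and 48.6 CPM at day 0 to 6.10, 6.50 and 7.30 at day 1 (-2.69 ± 0.18, adjusted p = 4.06e-13). PERK KO libraries went from 22.5, 21.0 and 29.8 to 7.69, 6.72 and 6.97 (-1.78 ± 0.18, adjusted p = 3.21e-09). Wild type then read 11.1, 11.6 and 16.9 CPM at day 2, 28.7, 30.7 and 39.3 at day 3, 31.1, 25.8 and 24.8 at day 5 (below day 0, -0.65 ± 0.17, adjusted p = 0.00152) and 38.4, 45.7 and 50.7 at day 10, the last not called different from day 0 (0.08 ± 0.17, adjusted p = 0.705). PERK KO stayed between 7.61 and 15.6 CPM from day 2 to day 10, and every later day was called below its day 0. PERK KO was lower at day 0 (-0.80 ± 0.17, adjusted p = 0.00102; -0.70 without the 2 libraries), day 3 (-1.30 ± 0.17, 1.96e-07), day 5 (-1.15 ± 0.17, 1.38e-06) and day 10 (-1.64 ± 0.17, 1.51e-09), with no overlap of libraries. The weaker call at day 2 (-0.45 ± 0.18, adjusted p = 0.0416) was lost without wild-type day 2 replicate 3 (-0.22, adjusted p = 0.378) and without PERK KO day 2 replicate 3 (-0.29, adjusted p = 0.239). As with XBP1 and ATF6B, the day 0 call was lost in a fit of only the 6 compared libraries (adjusted p = 0.0868).

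CREB3L2, known as BBF2H7 and for the secretory pathway of cartilage cells, had the largest single genotype difference of the set, at day 10. At day 0 the genotypes were not called different, with 58.7, 64.3 and 66.0 CPM in wild type and 74.0, 27.6 and 69.6 in PERK KO, the 27.6 in the library that stood apart. In wild type it rose to 105.3, 96.6 and 106.9 CPM at day 1 (0.71 ± 0.18, adjusted p = 0.00221), 205.2, 203.1 and 186.2 at day 2 (1.65 ± 0.19, 1.05e-08) and 222.9, 223.9 and 200.3 at day 10 (1.78 ± 0.19, 1.02e-09). In PERK KO it read 43.3, 41.5 and 38.9 CPM at day 1, 54.2, 61.5 and 58.1 at day 2, 59.1, 62.9 and 61.9 at day 3, 90.3, 84.8 and 89.0 at day 5 and 61.7, 49.8 and 59.8 at day 10. PERK KO was lower at day 1 (-1.32 ± 0.19, adjusted p = 4.1e-06), day 2 (-1.77 ± 0.19, 3.78e-09), day 3 (-1.45 ± 0.19, 9.44e-08), day 5 (-0.96 ± 0.18, 4.63e-05) and day 10 (-1.92 ± 0.19, 3.29e-10). No libraries overlapped at these 5 days, and the day 10 difference was 3.78-fold. The course within PERK KO depends on day 0 replicate 2: against all 3 day 0 libraries the values at days 1, 2, 3, 5 and 10 were -0.47, 0.02, 0.10, 0.62 and -0.00, and without the 2 libraries they were -0.79, -0.30, -0.25, 0.30 and -0.33, each called (adjusted p 1.28e-07 to 0.0387). The 8 fibroblast or mesenchyme markers, COL1A1 among them, summed to 377 to 415 CPM in wild type at day 0 and 3693 to 5323 at day 10, with 6 of 8 above 1 CPM and DCN and POSTN below it. In PERK KO they summed to 167 to 288 CPM at day 0 and 236 to 323 at day 10; their part in the levels of CREB3L1 and CREB3L2 was not tested.

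Levels of different genes were compared on TPM, which is per transcript length. XBP1 was the highest of the 9 genes in all 12 groups, from a mean of 61.4 TPM in PERK KO at day 5 to 202.2 in wild type at day 10, and its libraries overlapped those of no other gene. ERN1 had the lowest mean in 11 groups, at 1.54 to 4.18 TPM. Among these its libraries overlapped those of MBTPS2 in wild type at days 2 and 3 and in PERK KO at day 0. In wild type at day 10 ERN1 stood at rank 7 (8.48 TPM), where it overlapped MBTPS2 (5.79), which overlapped ATF6 (5.51). At day 0 in wild type the order was XBP1 (109.7), ATF6B (40.5), MBTPS1 (29.7), CREB3 (24.9), CREB3L1 (23.9), CREB3L2 (11.1), ATF6 (5.603), MBTPS2 (3.26) and ERN1 (2.22), and of neighbours only CREB3 and CREB3L1 overlapped. By day 10 CREB3L2 (55.4) stood beside MBTPS1 (57.3) and ATF6B (51.6), with overlapping libraries among neighbours. In PERK KO at day 10 CREB3L2 stood at rank 5 with 13.2 TPM, below CREB3 (26.7) and above CREB3L1 (9.97), and did not overlap either. Over all libraries CREB3L2 had the widest span, 18.2-fold from 4.11 to 74.8 TPM. Its lowest value is PERK KO day 0 replicate 2. Without that library, an alternative chosen after seeing the data, the span was 9.89-fold from 7.56 TPM, with CREB3L1 next at 8.21-fold. The highest value is from wild type at day 10, where libraries read 42.0 to 74.8 TPM but 200.3 to 223.9 CPM. Estimated CREB3L2 lengths there ran from 3797 to 6602 nt. The span without the highest value was not computed, so the first place of CREB3L2 is uncertain. With the library totals of FPKM in place of TPM the order was the same in 11 of 12 groups.

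**Figure D3:**
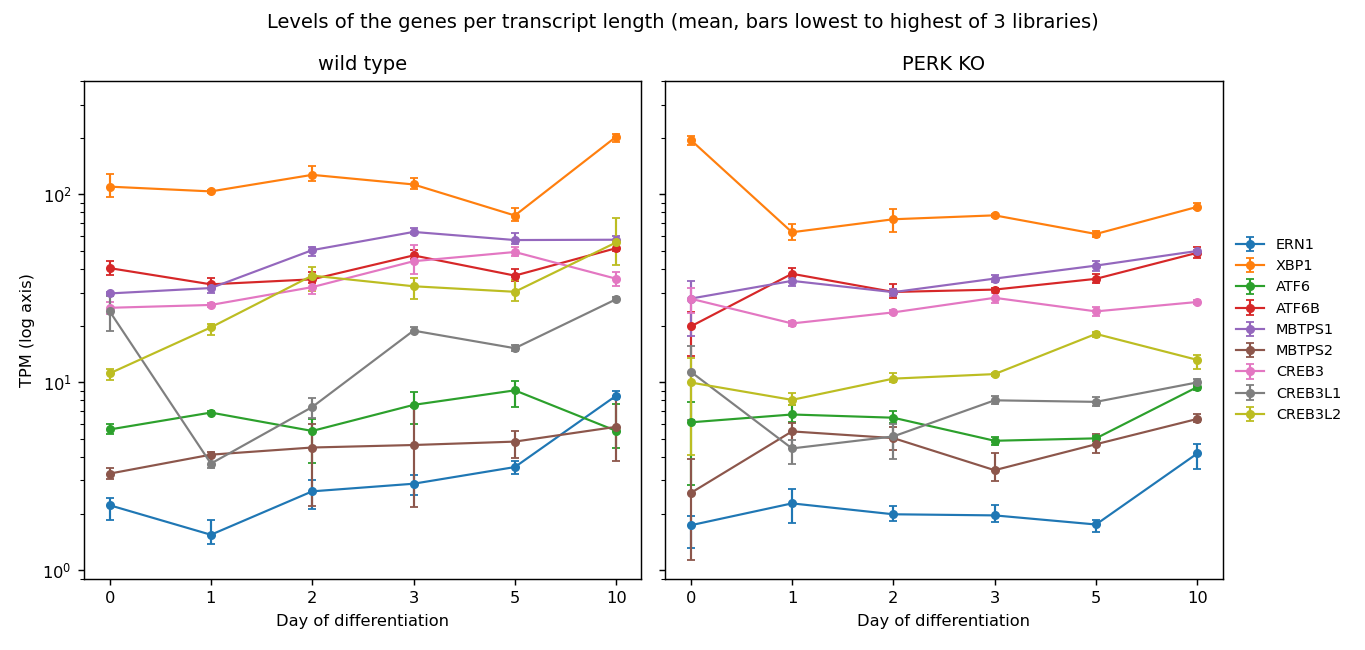
Mean TPM of each gene (colours) by day on a log axis, wild type at left and PERK KO at right, with bars from the lowest to the highest of 3 libraries. XBP1 is the top line in both panels, and CREB3L2 climbs from 11.1 to 55.4 TPM in wild type and ends at 13.2 in PERK KO.

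The deposited files also give for each gene a mean transcript length, weighted by the estimated share of its isoforms. For CREB3L2, wild-type day 10 read 6602, 3797 and 5686 nt against 7180, 6679 and 7024 nt in PERK KO. The libraries did not overlap, and the exact two-sided permutation test of 3 against 3 gave p = 0.1, the smallest it allows. A low value was also seen in PERK KO day 0 replicate 2, at 4883 nt. XBP1 at day 10 read 1401, 1497 and 1549 nt in wild type and 1721, 1556 and 1658 nt in PERK KO, again without overlap (exact permutation p = 0.1). The annotated transcript XBP1-201 that holds the IRE1 segment is 1850 nt and XBP1-207 that lacks it 1794 nt. These lie closer together than the replicates of most groups, so the length cannot be read as a splicing measure. ERN1 was longer in wild type at day 2 (5784 against 4436 nt on average) and shorter at day 10 (4129 against 4803), each without overlap of libraries (exact permutation p = 0.1). Libraries also did not overlap for CREB3L2 at day 5, with PERK KO the shorter (7115 against 7305 nt on average). Nor did they overlap for MBTPS1 at day 3, with PERK KO the longer (3941 against 3808 nt). At day 5 MBTPS1 was without overlap and PERK KO the shorter (3680 against 3929 nt). For CREB3 at day 10 there was no overlap and PERK KO was the longer (1780 against 1721 nt). At day 10 the mean length of every gene of the set was greater in PERK KO, by 0.3 nt for MBTPS2 to 1599 nt for CREB3L2. Over all counted transcripts the day 10 libraries averaged 3038, 2802 and 2837 nt in wild type and 3037, 3035 and 3080 nt in PERK KO. The part of this in the lengths of single genes was not tested. In all 54 comparisons of length between genotypes were made, and none can reach a p below 0.1.

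**Figure D4:**
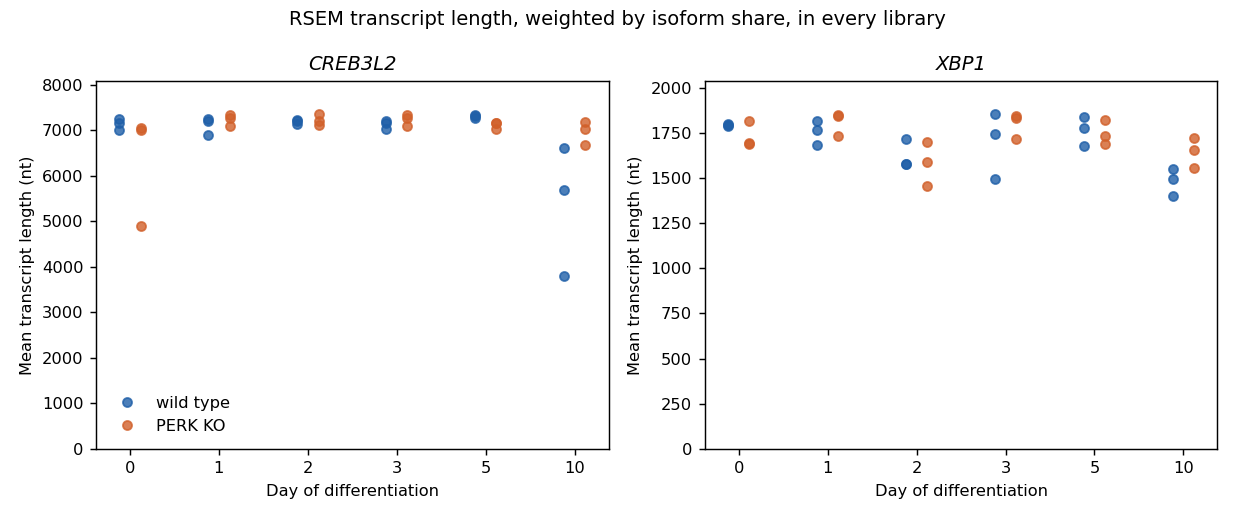
Isoform-weighted mean transcript length in nt of CREB3L2 (left) and XBP1 (right) in every library by day, wild type in blue and PERK KO in orange, on linear axes from 0. The 3 wild-type day 10 points of CREB3L2, at 6602, 3797 and 5686 nt, lie below those of PERK KO.

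Genes with the most similar course were sought by Pearson correlation of the 12 group means of log2 CPM, among 12070 genes of at least 5 mean CPM. These values describe 12 points that share libraries and the wide difference in cell identity, and carry no p. ERN1 ran closest to CLK3 (r = 0.971), TRPM4 (0.961) and FUT11 (0.954), and XBP1 to CEBPB (0.926), FAM129B (0.918) and CDK9 (0.911). ATF6 had the least similar partners, led by FRMD6 (0.843), and ATF6B was closest to LENG8 (0.939). MBTPS1 ran closest to NRG2 (0.984) and MBTPS2 to TRPC1 (0.899). CREB3 was closest to LYN (0.969), CREB3L1 to CCND3 (0.915), and CREB3L2 to AKT1 (0.941), the collagen gene COL5A1 (0.940) and LIX1L (0.932). Within the set MBTPS1 and CREB3L2 had the highest correlation (0.845), followed by MBTPS1 and CREB3 (0.771) and ERN1 and ATF6B (0.748). ERN1 and its substrate XBP1 stood at 0.284, and the cleaved sensor ATF6 and MBTPS1 at 0.221.

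Genes known to work with these sensors were described from 6 lists of 66 genes, 8 of them in more than 1 list. The 14 ATF6 targets, mostly ER chaperones and degradation factors, had 5 members higher and 1 lower in PERK KO at day 0, and 4 and 1 without the 2 libraries. At days 1, 2, 3 and 5 they had 3, 11, 7 and 7 members lower, with 1 higher at day 5 alone, and at day 10 there were 7 lower and 5 higher. The shares of all tested genes called are those given above, and the median of the list was -0.70 at day 2 against 0.00 for all genes. With the 2 libraries left out, 5 were lower at day 1 and 11 at day 2.
HSPA5, the chaperone BiP that holds the sensors inactive, was at 850.9 ± 280.9 CPM in PERK KO and 438.2 ± 32.6 in wild type at day 0 (SD, n = 3; log2 fold change 0.96 ± 0.19, edgeR adjusted p = 0.000371; 0.66 without the 2 libraries). At day 2 it was lower, at 374.7 ± 19.1 against 644.0 ± 31.2 CPM (-0.78 ± 0.18, adjusted p = 0.000979), and it was called lower at every day from 1 to 10. HERPUD1, an ER degradation factor, was lower at days 1 to 10, with 13.5 ± 2.51 against 71.6 ± 10.3 CPM at day 10 (-2.41 ± 0.20, edgeR adjusted p = 1.03e-11). HSP90B1, the chaperone GRP94, was higher in PERK KO at day 5 (1.09 ± 0.25) and day 10 (1.74 ± 0.26, edgeR adjusted p = 8.33e-07), and DERL3, a degradation factor, was lower at day 2 (-1.81 ± 0.33) and higher at day 10 (1.91 ± 0.35). Promoters were at hand for 13 of the 14 genes, and 5 of them held the ERSE shown above for XBP1 (CALR, CRELD2, HSP90B1, HSPA5 and PDIA6) and 3 the ERSE-II (HERPUD1, HYOU1 and SDF2L1).

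The 20 XBP1 targets, which serve protein translocation, folding and transport, were split: 3 higher and 1 lower at day 0, 1 and 3 at day 1, 4 and 5 at day 2, 0 and 7 at day 3, 3 and 5 at day 5, and 6 and 7 at day 10. Without the 2 libraries they were 1 and 7 at day 1, 1 and 6 at day 2, and 6 and 5 at day 5. Of all tested genes 21.1%, 15.8%, 42.6%, 45.1%, 59% and 67.3% were called at days 0, 1, 2, 3, 5 and 10. In the fit of all libraries the XBP1 targets were called about as often as all genes, or less often. SEC61A1, the channel subunit of the translocon, was lower at all days from 1 to 10, with 180.2 ± 4.91 against 377.9 ± 54.4 CPM at day 10 (-1.07 ± 0.14, edgeR adjusted p = 4.95e-08). SEC61G, a small subunit of the same channel, was called only at day 0, at 59.1 ± 32.7 against 16.2 ± 2.37 CPM (1.86 ± 0.21; 1.32 without the 2 libraries, where day 1 was also called at -0.47). ARFGAP3, a Golgi transport factor, was lower from day 2 on, by -1.53 ± 0.14 at day 5 (edgeR adjusted p = 4.2e-11), and SEC24D, a coat protein of ER export, was higher at days 1, 2 and 5 and lower at day 10 (-0.96 ± 0.14). Without the 2 libraries SEC24D was also called higher at day 0 (0.47).
Of 16 partners of IRE1, 3 were higher and 0 lower at day 0, 4 and 3 at day 2, 7 and 3 at day 5, and 7 and 4 at day 10. Without the 2 libraries they were 4 and 1 at day 0 and 2 and 3 at day 2. The shares of all tested genes called were 21.1%, 42.6%, 59% and 67.3% at days 0, 2, 5 and 10, near those of this list. FAM98B, a part of the tRNA ligase complex that rejoins XBP1, was higher at day 10 with 64.3 ± 5.66 against 13.5 ± 3.43 CPM (2.25 ± 0.25, edgeR adjusted p = 4.07e-09). ZBTB8OS, also called archease and a helper of that ligase, was higher at day 5 (0.51 ± 0.20) and day 10 (1.08 ± 0.21). At day 0 its value was -0.49, not called, and without the 2 libraries it was called lower (-0.83).

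Of 7 messages known as substrates of regulated IRE1-dependent decay (RIDD), the cutting of other messages by IRE1, 6 were lower in PERK KO at day 2 and 5 each at days 3, 5 and 10, with 0 or 1 higher at each of those days. Of all tested genes 21.7%, 23.2%, 30.5% and 34% were lower at days 2, 3, 5 and 10. At day 0 there were 1 higher and 3 lower, and at day 1 there were 1 and 2. Without the 2 libraries that stood apart 5 were lower at day 2, and PDGFRB was then not called at that day. Named from this list are SPARC, a matrix glycoprotein, COL6A1, a collagen chain, PDGFRB, a growth factor receptor, and PMP22, a membrane protein of myelin. SPARC read 236.0 ± 8.94 CPM in PERK KO against 1504 ± 260.0 in wild type at day 10 (-2.67 ± 0.13, edgeR adjusted p = 1.04e-16), and COL6A1 88.2 ± 2.43 against 1126 ± 202.5 (-3.67 ± 0.16). Of the 8 fibroblast or mesenchyme markers 7 were tested, and at day 10 5 were lower in PERK KO, POSTN was higher, LUM was not called and DCN was not tested. Their sum was 236 to 323 CPM in PERK KO and 3693 to 5323 in wild type, and their part in the list was not tested.
The 6 targets of the CREB3 family were split, with 2 members higher and 3 lower at day 2, 1 and 3 at day 3, 3 and 3 at day 5, and 1 and 4 at day 10. Of all tested genes 42.6%, 45.1%, 59% and 67.3% were called at days 2, 3, 5 and 10. COL1A1 and COL1A2, the chains of type I collagen, were lower at day 10, with 139.2 ± 16.3 against 1169 ± 277.1 CPM (-3.07 ± 0.22) and 90.2 ± 23.5 against 1478 ± 174.2 (-4.03 ± 0.18, edgeR adjusted p = 4.97e-18). CHRDL1, a BMP antagonist, was higher in PERK KO from day 2 (4.70 ± 0.26 at day 10, 13.9 ± 0.45 against 0.54 ± 0.12 CPM). Without the 2 libraries that stood apart it was also called higher at day 0 (0.66). COL1A1 and COL1A2 are themselves among the 8 mesenchyme markers.
Of 11 further clients and partners of the 2 proteases, 3 were higher and 2 lower at day 2, 2 and 5 at day 3, 2 and 4 at day 5, and 2 and 5 at day 10. At day 2 there were 1 and 2 without the 2 libraries. The shares of all tested genes called were 42.6%, 45.1%, 59% and 67.3% at days 2, 3, 5 and 10. SREBF2, the sterol factor that both proteases release, was lower at day 3 (-1.07 ± 0.14), day 5 (-1.62 ± 0.14) and day 10 (-1.36 ± 0.14, edgeR adjusted p = 6.71e-10). INSIG1, which retains that factor in the ER, was higher at day 0 (0.49 ± 0.17; 0.29, not called, without the 2 libraries) and day 1 and lower from day 3, with 37.8 ± 2.81 against 442.5 ± 169.0 CPM at day 10 (-3.55 ± 0.19). GNPTAB, a client of site-1 protease that tags lysosomal enzymes, was higher from day 2 (0.81 ± 0.32; 0.46, not called, without the 2 libraries), with 104.1 ± 3.08 against 19.7 ± 4.87 CPM at day 5 (2.40 ± 0.33, edgeR adjusted p = 2.86e-07).

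**Figure D5:**
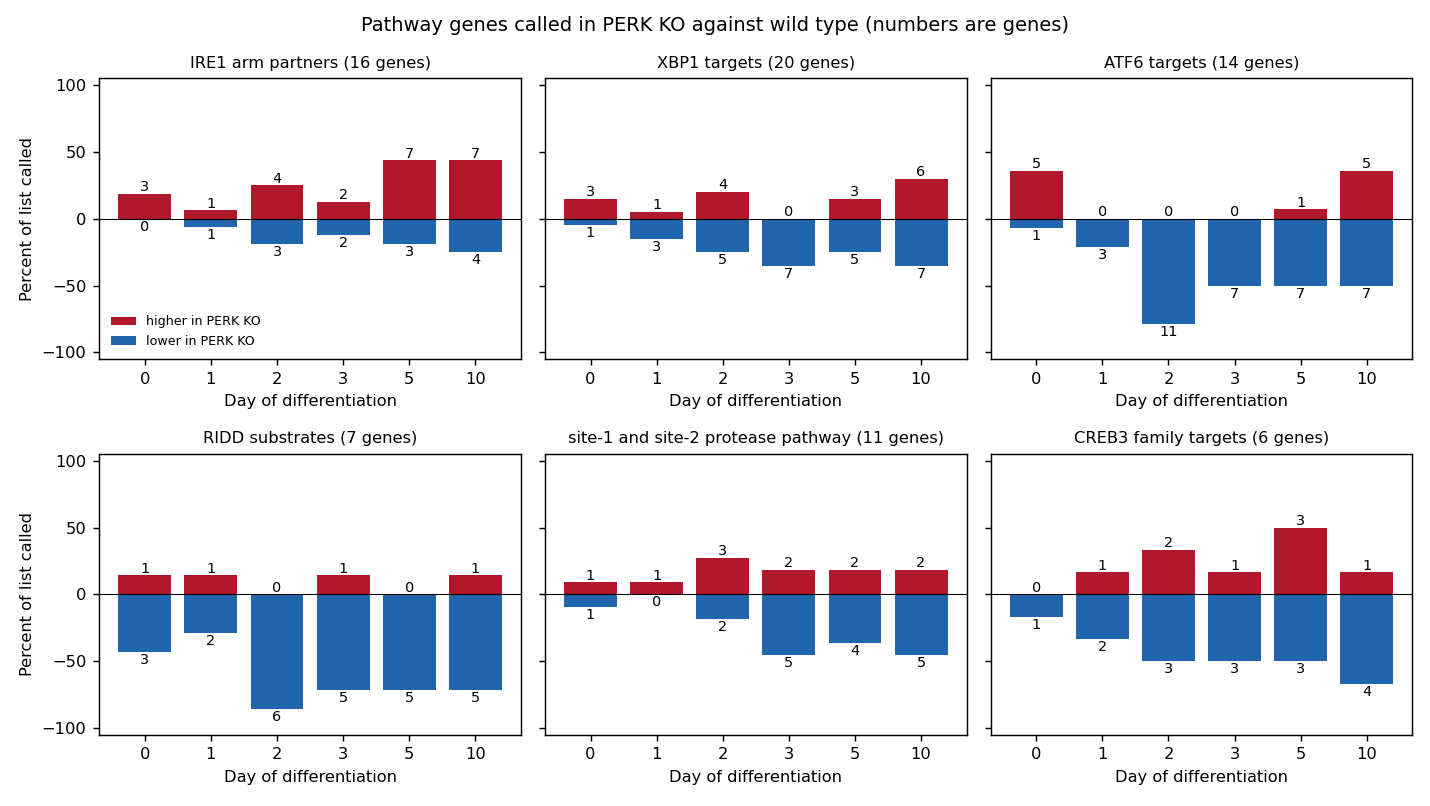
Percent of each of the 6 pathway lists called higher (red, upward) or lower (blue, downward) in PERK KO at each day, with the number of genes on each bar. The ATF6 targets have 11 of 14 lower at day 2, and the RIDD substrates 6 of 7 (5 without the 2 libraries that stood apart). At that day 21.7% of all tested genes were lower.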

How the data were processed

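Libraries of H1 cells were prepared with an mRNA kit and sequenced as read pairs on a HiSeq instrument, per the series' design text. CASAVA, FastQC, STAR and RSEM with GRCh38 (hg38) are named in the submitters' processing notes; their versions and the strand setting are not stated there. The deposited files hold expected counts from RSEM, of which 6.53 to 9.43% per library were not whole, since reads shared between genes are split. The deposited TPM and FPKM values are the authors' own, scaled to transcript length and library size. The deposited length columns are transcript lengths weighted by isoform share, as RSEM writes them per the file headers.

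Expected counts were rounded to whole numbers. All 36 libraries were fitted in 12 groups with edgeR 4.0.16 (limma 3.58.1, R 4.3.3): genes were kept by filterByExpr, libraries scaled by TMM, and the quasi-likelihood test was adjusted by Benjamini-Hochberg over the 19772 genes kept, with calls at 0.05. The common dispersion was 0.0349. SE was taken from the log2 fold change and its F value. CPM uses TMM library sizes. The script was tested on simulated data. Depth was 14.0 to 25.9 M counts, and a gene of few counts has a wider error.

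The members and lists were chosen with earlier results of these data known. Of each pathway list the 4 genes with the smallest p for the change of the genotype difference over days could be named, and for each member the 3 most correlated genes. Correlations used log2 of CPM plus 0.5. Alternatives were RLE scaling, no filter, DESeq2 1.42.0, only the compared libraries, a replicate block, a transcript length offset and leaving out libraries. Promoters came from RefSeq and gene models from GENCODE 29, which matched all 58721 gene IDs.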

Additional observations from a re-analysis of the deposited data

Results flagged for a closer look

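The difference between PERK KO and wild type changed over the 6 days for 8 of the 9 genes, by edgeR's joint test of the 5 genotype by day terms, where 80.9% of all tested genes also passed. The adjusted p was 4.05e-07 for ERN1, 4.7e-08 for XBP1, 1.09e-06 for ATF6 and 0.0347 for ATF6B. It was 2.28e-06 for MBTPS1, 0.000553 for CREB3, 3.61e-06 for CREB3L1 and 5.22e-06 for CREB3L2. XBP1 went from 1.14 at day 0 to -1.37 at day 10 on the log2 scale, and ATF6 from -1 at day 5 to 0.49 at day 10. The ATF6B value was lost without wild-type day 0 replicate 2 (adjusted p = 0.102), and for MBTPS2 the test gave 0.408.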

How the results depend on the processing

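Of 153 gene results, 152 kept their direction and their side of the threshold with DESeq2, 150 with RLE scaling, 144 with the length offset, 140 with no filter and 133 without the 2 libraries that stood apart (replicate 2 of PERK KO at day 0 and replicate 3 of wild type at day 2). With only the compared libraries 120 of 144 did. Without those 2 libraries CREB3L2 in PERK KO changed sign against day 0, to -0.3 at day 2 and -0.25 at day 3, and to -0.29 at day 2 without the first of them alone. Without PERK KO day 0 replicate 1 it was 0.25 at day 2 and 0.33 at day 3; the 2 libraries also left 3 of 5 genes called at day 2 against day 0 in PERK KO. With only the compared libraries, genes called between genotypes were 0 (from 3) at day 0 and 5 (from 3) at day 1, and in PERK KO against day 0 they were 2 (from 6) at day 1, 2 (from 5) at day 2 and 2 (from 4) at day 3. Over all genes this fit called 304 at day 0 (4177 in the fit of all libraries) and 7355 at day 1 (3129) between genotypes, and 4268 (8517), 4399 (8180), 4186 (7968) and 5973 (9645) at days 1, 2, 3 and 5 against day 0 in PERK KO. Without the 2 libraries 4931 genes were called between genotypes at day 1. Fewer libraries enter each such fit, and the cause was not tested further. Leaving out 1 library in turn, the genes called between genotypes were 3 to 4 at day 0, 3 to 3 at day 1, 4 to 5 at day 2, 4 to 8 at day 3, 7 to 7 at day 5 and 7 to 7 at day 10. In PERK KO against day 0 they were 4 to 5, 2 to 5, 3 to 5, 5 to 7 and 5 to 6 at days 1, 2, 3, 5 and 10, with 2 without PERK KO day 2 replicate 1. In wild type they were 3 to 3, 3 to 4, 3 to 4, 6 to 7 and 5 to 6, and 7 to 8 for the change over days. Same-numbered replicates did not pair over the days as a whole, as 4 of 18 correlations of their deviations were over 0.1 (-0.214 to 0.496). Day 3 differed: replicates 1 and 3 ran alike by number (0.496 and 0.446) and opposite across these numbers (-0.456 and -0.492). The cause was not tested. A replicate block lost no call and added 2, CREB3L1 at day 3 (-0.38, edgeR adjusted p = 0.0451) and MBTPS2 at day 5 (0.55, edgeR adjusted p = 0.0494), both in wild type against day 0. Depth limits ERN1 and MBTPS2 most, with as few as 67 and 74 counts in a library.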
